A study of Mus musculus with 4 samples.

Results

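The ADAM, ADAMTS and ADAMTS-like genes encode zinc-dependent membrane sheddases, secreted matrix proteinases and the secreted relatives of these that lack a proteinase domain. Members were all genes whose symbol in the platform annotation begins with Adam, Adamts or Adamtsl followed by a digit and that had a probe set with a single symbol. This gave 45 of the 17097 genes measured, namely 26 ADAM, 14 ADAMTS and 5 ADAMTS-like genes, with 78 probe sets among them. Each gene is given by its brightest probe set, judged by the mean of the 4 arrays, and its other probe sets are set beside it where they bear on a result.

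ADAM proteinases sit in the cell membrane and cut the outer part off other membrane proteins, among them EGF receptor ligands, cytokines, Notch receptors and cadherins. In the mammary gland ADAM17 frees amphiregulin from epithelial cells, a step needed for the ducts to grow. ADAMTS proteinases are secreted, bind to the matrix through thrombospondin repeats and cut proteoglycans such as versican and aggrecan, procollagens and other matrix proteins. Tissue inhibitors of metalloproteinases hold both families in check.

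Mouse mammary gland cells were profiled 3 days after transplantation. The group called BC alone received 10000 BC cells and no other cell type, which the submitters name the multipotent condition, and the control received 2000 BC cells together with 8000 LC cells, named unipotent. BC and LC are commonly read as basal and luminal cells, which the labels do not spell out, and no strain, age, sex or recipient is given. Each group had 2 arrays, each made from the RNA of 50 cells sorted from the transplants by a gate that is not named. Nothing says that the 2 arrays of a group came from separate mice, so their spread may be technical, and the small number of arrays limits the precision. Presence of LC cells and a smaller dose of BC cells go together in the control, and their effects cannot be told apart.

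Control replicate 2 stood apart from the other 3 arrays. Its median over all probe sets was 4.62 against 4.37 to 4.38 elsewhere, its SD was 1.44 against 1.90 to 1.92, and its Pearson correlation with the others over probe sets was 0.915 to 0.919 against 0.968 to 0.972 among the rest. All 7 basal markers lay above the array median on every array, but their mean log2 value was 9.1, 8.75 and 9.22 on the BC alone arrays and control replicate 1 and 5.97 on control replicate 2. The 6 luminal markers measured had a mean of 7.83, 8.19, 8.21 and 7.26 in the same order. The interquartile range of control replicate 2 was 2.03 against 2.60 to 2.65, so the main differences are also given against single control arrays.

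Adamts4 and Adamts5, which encode proteoglycan-cleaving enzymes, and Adamts18, a gene of another secreted proteinase, were higher in BC alone by 3.61-fold, 2.66-fold and 4.18-fold. These 3 genes kept at least a 2-fold difference without overlap under all 3 other scalings, when the probe sets of a gene were averaged and whichever array was left out. The sheddase gene Adam12 was at least 2-fold higher over both controls and against control replicate 1, but not against control replicate 2. In all, 9 of 45 members were at least 2-fold higher in BC alone with no overlap between the groups, or 20.0%, where 4.79% of all genes were. None was at least 2-fold lower without overlap, where 0.895% of all genes were. Leaving out control replicate 2 gave 6 higher and 1 lower member, and leaving out control replicate 1 gave 10 higher and 5 lower. Groups were apart with BC alone on top for 16 members, or 35.6%, against 16.8% of all genes, and with BC alone below for 4 members, or 8.89%, against 19.6% of all genes. A higher mean in BC alone was found for 20 of 45 members, or 44.4%, against 46.7% of all genes. The median difference of the members was -0.095 on the log2 scale, against -0.04 over all genes. It was 1.205 for the 7 proteoglycan-cleaving ADAMTS genes, 0.78 for the 9 shedding ADAM genes and -0.248 for the 14 gamete ADAM genes. Against control replicate 1 alone these 3 medians were 0.735, 0.19 and 0.025 in the same order. Against control replicate 2 alone they were 1.18, 0.6 and -0.385.

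No member passed limma's test after Benjamini-Hochberg adjustment across the 17097 genes, and 0.0% of all genes did. The adjusted p of members ran from 0.842 to 0.982. At an unadjusted p under 0.05 in limma there were 7 members, 6 higher and 1 lower in BC alone, or 15.6%, against 3.98% of all genes. Under another variance model with an intensity trend 1 member passed, Adamts18, and under a robust model 0 did. With 2 arrays in each group, the smallest p that an exact permutation test allows is 0.333. The differences below are therefore descriptions of these 4 arrays.

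Against control replicate 1 alone, 6 members were at least 2-fold higher in BC alone without overlap and 1 was lower, against 2.19% and 2.09% of all genes, and limma called 0.0% of all genes. Of the 9 higher members, 4 met that size again, and Adam23 and Adam33 joined them. Against control replicate 2 alone, 10 members were at least 2-fold higher without overlap and 5 were lower, against 18.1% and 4.23% of all genes. The 10 were 8 of the 9, all but Adam12, with Adam17 and Adamtsl4, and the 5 lower ones were Adam8, Adam28, Adam4, Adam26a and Adamts3. Other scalings of the values left 5 to 9 members at least 2-fold higher and 0 lower. They were 5 under a second quantile normalization, 6 under cyclic loess and 9 under median centring. Of all genes 3.59%, 3.12% and 7.27% were at least 2-fold apart without overlap in the same order, against 5.69% as reported. Over all genes the share of higher ones among those at least 2-fold apart moved from 84.3% to 54.4% under a second quantile normalization, 56.5% under cyclic loess and 92.0% under median centring.

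**Figure D1:**
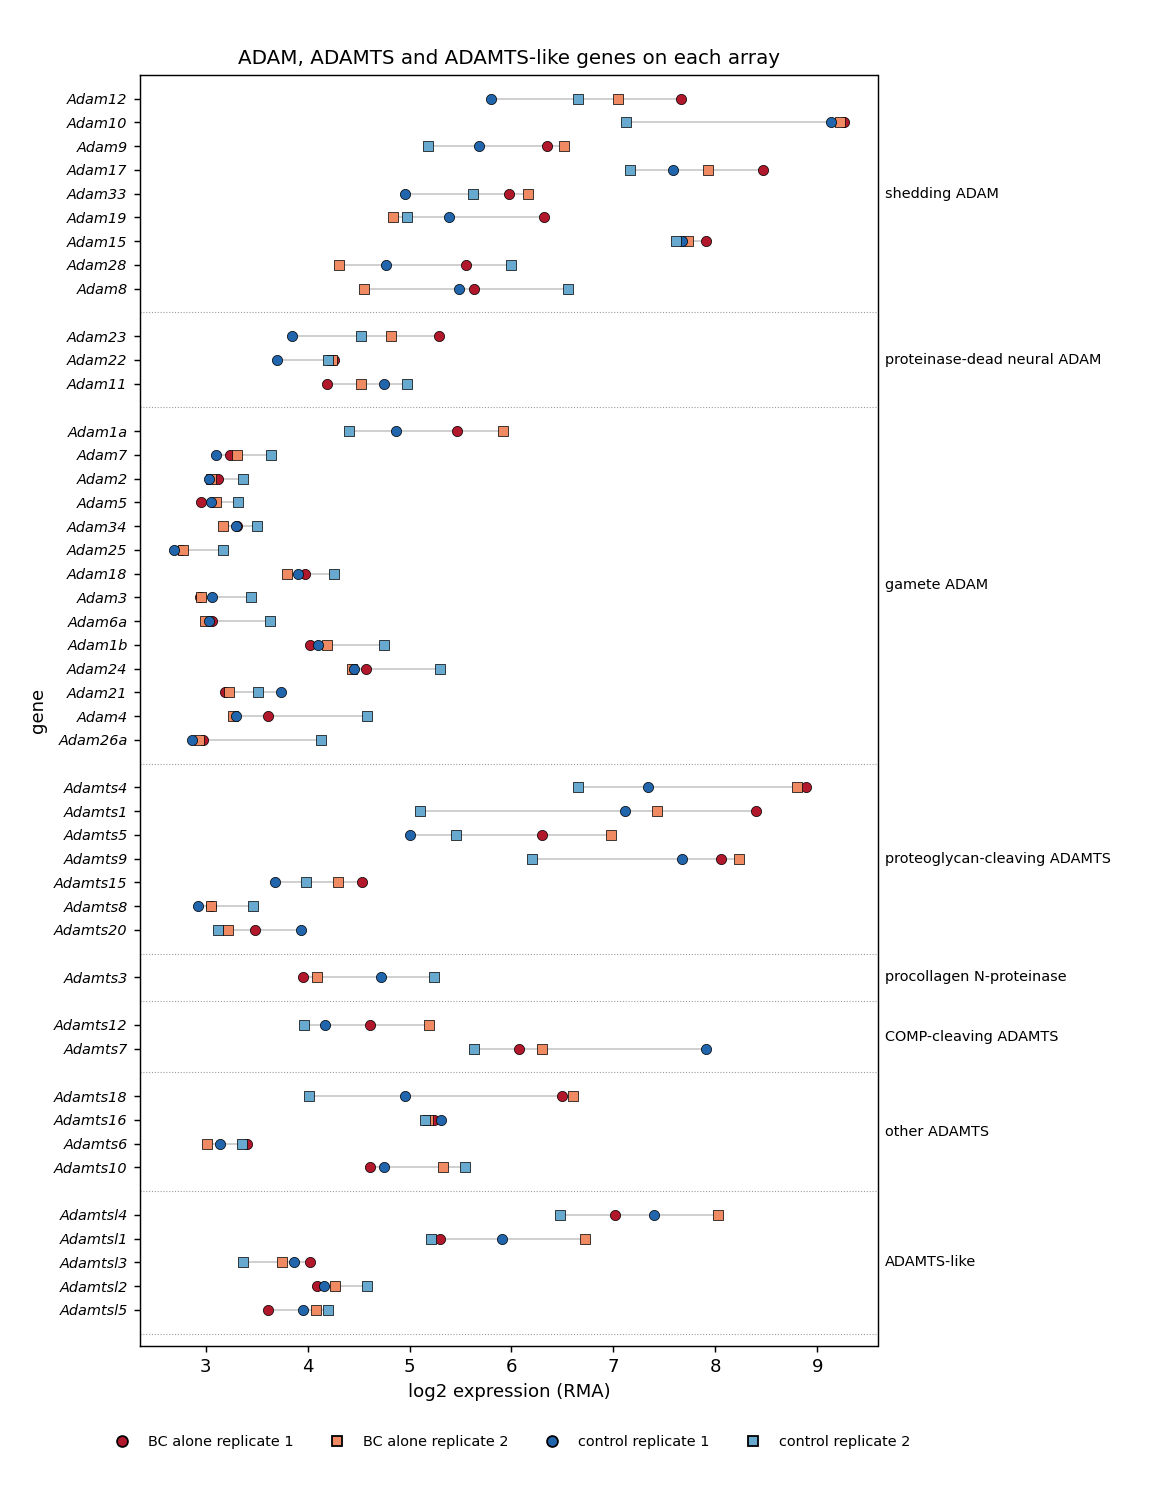
Log2 expression of the 45 genes on each array, as deposited RMA values, grouped by role and sorted within a role by the difference of the group means. Circles and squares are replicates 1 and 2, red shades BC alone and blue shades the control, and a grey line joins the lowest and the highest array. Adamts4, Adamts5 and Adamts18 have both BC alone arrays well above both controls, while most gamete ADAM genes lie low with control replicate 2 on the right.

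The proteoglycan-cleaving ADAMTS genes encode the enzymes that cut versican and aggrecan. Of these, 5 of 7 had a higher mean in BC alone and 4 were at least 2-fold higher without overlap. The shares over all genes were 46.7% and 4.79%. Adamts4, the gene of aggrecanase 1, had a log2 value of 8.89 and 8.80 on the BC alone arrays and 7.34 and 6.65 on the controls. Both BC alone arrays were above both controls, and the controls lay further from each other than the BC alone arrays did. The difference was 1.85 ± 0.36 (SE of the limma fit), or 3.61-fold (unadjusted p = 0.00273, adjusted p = 0.842 in limma). A dimmer probe set of Adamts4 had 7.81 and 7.47 against 5.38 and 5.96, a difference of 1.97, so both probe sets kept the groups apart.

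Adamts5, the gene of aggrecanase 2, had 6.30 and 6.98 on the BC alone arrays and 5.0 and 5.46 on the controls, without overlap. The difference was 1.41 ± 0.38 (SE), or 2.66-fold (unadjusted p = 0.012, adjusted p = 0.842 in limma). Control replicate 1 was here the lower control, so the difference from it, 1.64, exceeded that from control replicate 2, 1.18. Of 3 further Adamts5 probe sets, 2 differed by 2.01 and 2.17, and the dimmest, at 2.75 to 3.14 on all arrays, differed by -0.14. These 2 probe sets thus had a larger gap than the probe set chosen by brightness.

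Adamts1 encodes a versican-cleaving proteinase and is the neighbour of Adamts5 in the order of protein-coding genes on chromosome 16. Its BC alone arrays read 8.40 and 7.43, control replicate 1 read 7.11 and control replicate 2 read 5.10. The groups did not overlap, but the gap between the controls, 2.01, was larger than the difference of 1.81 ± 0.73 (SE, adjusted p = 0.842 in limma). Against control replicate 1 alone Adamts1 was 0.805 higher and against control replicate 2 alone 2.815 higher. It had a single probe set.

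Adamts9, another versican-cleaving enzyme, had 8.05 and 8.23 in BC alone, and the controls had 7.67 and 6.20. As for Adamts1, control replicate 2 was far below the rest. The difference was 1.205 ± 0.53 (SE) over both controls, 0.47 against control replicate 1 alone and 1.94 against control replicate 2 alone. Its dimmer probe sets differed by 0.595 and 0.31. Adamts15 had 4.53 and 4.30 against 3.68 and 3.99, apart by 0.58, and lay below the array median on 3 arrays. Adamts8 and Adamts20 lay below the array median on every array and differed by -0.15 and -0.175, with overlap.

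Adamts18 encodes a secreted proteinase that is made by mammary myoepithelial cells and shapes their matrix. It read 6.50 and 6.60 on the BC alone arrays, against 4.96 and 4.01 on control replicates 1 and 2. The BC alone arrays were nearly alike and the controls were apart by 0.95. The difference of 2.065 ± 0.41 (SE), or 4.18-fold, was the largest of the 45 members (unadjusted p = 0.00303, adjusted p = 0.842 in limma). A second probe set had 6.31 and 6.12 against 5.14 and 3.35, a difference of 1.97, and the third, a dim one, differed by 0.295 with overlap. The difference was 1.59 from control replicate 1 alone and 2.54 from control replicate 2 alone. On control replicate 2 the brightest probe set lay below the array median, and since its signal there was not set against background the fold could be an underestimate.

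Adamts1, Adamts9 and Adamts18 are shown with the 250 bases before the start that the RefSeq promoter table, build GRCm38.p6, gives for them, because they are the ADAMTS genes with an entry there among those at least 2-fold higher. The table held 23 of the 45 members. Adamts4, Adamts5 and Adam12 had no entry. Each stretch lies on the minus strand and is written 5′ to 3′ along the gene, at chr16:85803114-85803363 for Adamts1, chr6:92943535-92943784 for Adamts9 and chr8:113848840-113849089 for Adamts18. Capitals mark matches to the TATA box TATAAA and the GC box GGGCGG on either strand. The AP-1 motif TGANTCA and the TEAD motif GGAATG were searched on both strands as well.
Adamts1: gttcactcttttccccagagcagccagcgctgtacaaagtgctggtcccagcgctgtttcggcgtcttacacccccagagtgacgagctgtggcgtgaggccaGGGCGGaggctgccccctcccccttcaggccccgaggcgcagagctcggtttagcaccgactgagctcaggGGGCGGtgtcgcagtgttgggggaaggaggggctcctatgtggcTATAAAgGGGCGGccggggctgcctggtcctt
Adamts9: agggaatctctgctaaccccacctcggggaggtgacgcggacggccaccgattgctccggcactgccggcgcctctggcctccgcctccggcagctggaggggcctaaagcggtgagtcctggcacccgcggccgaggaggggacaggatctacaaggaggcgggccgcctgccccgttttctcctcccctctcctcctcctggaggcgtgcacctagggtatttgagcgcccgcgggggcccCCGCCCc
Adamts18: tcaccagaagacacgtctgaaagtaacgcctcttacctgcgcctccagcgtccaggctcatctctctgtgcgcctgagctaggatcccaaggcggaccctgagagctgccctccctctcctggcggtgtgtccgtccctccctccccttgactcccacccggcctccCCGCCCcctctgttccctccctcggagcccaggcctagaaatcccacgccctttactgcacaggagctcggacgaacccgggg

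The Adamts1 stretch held a TATA box that began 32 bases before the start and GC boxes that began 147, 76 and 25 bases before it. Adamts9 and Adamts18 held 1 GC box each, on the opposite strand, 7 and 83 bases before the start, and no match to TATAAA. No match to the AP-1 or TEAD motif was found in these 3 stretches. Of the 32851 stretches of the same length in the table, 12.4% held TATAAA, 32.7% GGGCGG, 6.75% TGANTCA and 12.6% GGAATG. The GC content was 65.6%, 71.2% and 65.2%, against a median of 52.4% over the table. These matches describe the letters and were not tied to the expression values.

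**Figure D2:**
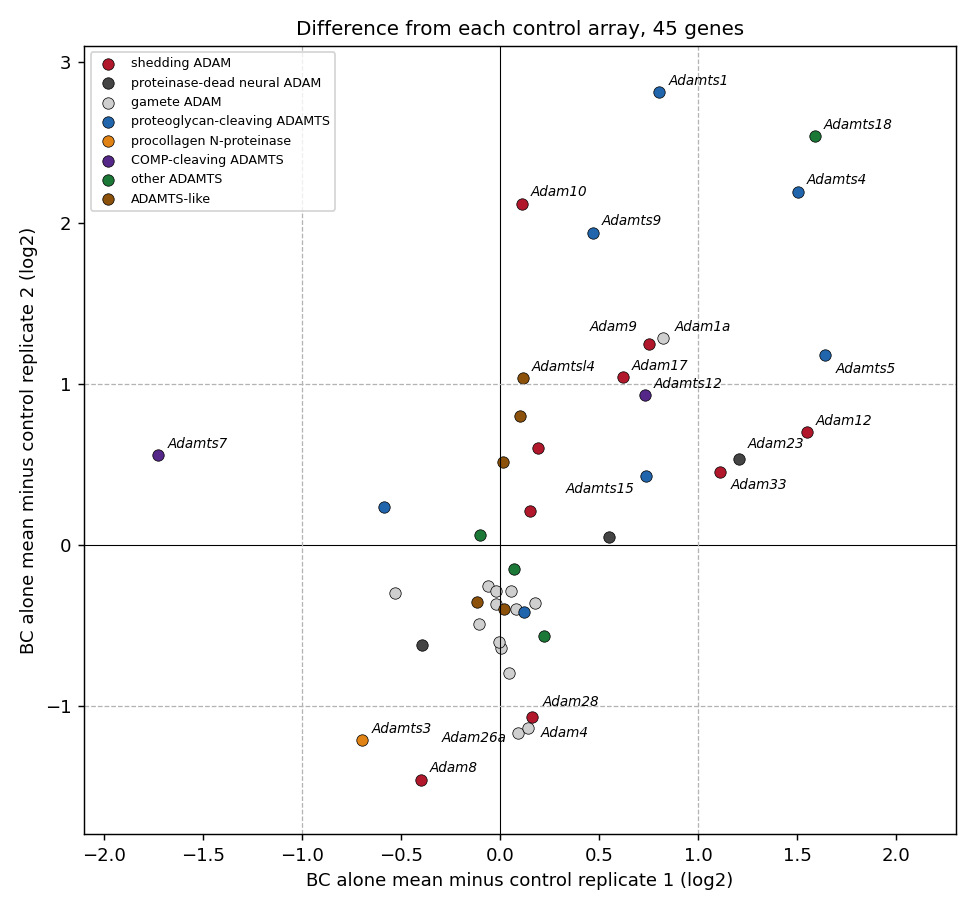
Difference of the BC alone mean from control replicate 1 (horizontal axis) and from control replicate 2 (vertical axis), in log2 units, for the 45 genes coloured by role. Dashed lines mark a 2-fold difference. Adamts4, Adamts5 and Adamts18 lie beyond 2-fold against both controls, Adam10 and Adamts9 mainly against control replicate 2, and Adamts7 in opposite directions.

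The shedding ADAM genes encode catalytically active membrane proteinases. Of these 9 genes 7 had a higher mean in BC alone, against 46.7% of all genes. Groups did not overlap for 6 of them, with BC alone on top, against 16.8% of all genes. The median difference of the 9 was 0.19 against control replicate 1 alone. Adam12 encodes a sheddase of EGF receptor ligands and insulin-like growth factor binding proteins found mainly in mesenchymal cells. It had 7.66 and 7.04 in BC alone and 5.80 and 6.65 in the control. The groups did not overlap, and the difference was 1.125 ± 0.43 (SE, unadjusted p = 0.0434, adjusted p = 0.842 in limma). Its second probe set had 6.28 and 5.21 against 5.15 and 3.86, a difference of 1.24. Against control replicate 1 alone the brighter probe set differed by 1.55 and against control replicate 2 alone by 0.70, and it fell short of 2-fold under another quantile normalization, at 0.60, and cyclic loess, at 0.73. The first probe set was lowest on control replicate 1 and the second on control replicate 2, so the controls were not ordered alike.

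Adam9, a broadly expressed sheddase gene with a single probe set, had 6.35 and 6.51 in BC alone, above the controls at 5.68 and 5.18. The groups were apart and the difference of 1.00 ± 0.33 (SE, unadjusted p = 0.0263, adjusted p = 0.842 in limma) lay just at the 2-fold bound. It was 0.75 against control replicate 1 alone and 1.25 against control replicate 2 alone. Adam17, the gene of the sheddase of tumour necrosis factor and amphiregulin, had 8.47 and 7.93 against 7.58 and 7.16. It fell short of 2-fold at 0.83 ± 0.36 (SE), without overlap, and its dimmer probe sets differed by 0.675 and 0.07. Against control replicates 1 and 2 alone Adam17 differed by 0.62 and 1.04. The brightest probe set kept its sign but depended on the scaling. A second quantile normalization reduced its difference to 0.21 and cyclic loess to 0.24, while median centring gave 0.96.

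Adam10 encodes the sheddase that makes the first cut in activated Notch receptors and also cuts E-cadherin. The BC alone arrays had 9.26 and 9.22, and the controls had 9.13 and 7.12. The first 3 arrays were nearly alike, and the 2-fold difference of 1.115 ± 0.67 (SE) rested on control replicate 2, since it was 0.11 without that array. The second Adam10 probe set was highest on control replicate 1, at 8.13 against 7.74 and 7.24 in BC alone. The third had 7.44 and 7.51 against 6.71 and 6.26, which kept the groups apart.

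Adam15, whose product carries an integrin-binding disintegrin domain, had 7.91 and 7.73 in BC alone and 7.67 and 7.61 in the control. The arrays differed little, by 0.18 ± 0.30 (SE), and the sign turned to -0.47 when quantiles were normalised again and to -0.41 with cyclic loess. Adam33 had 5.98 and 6.16 against 4.96 and 5.62, a difference of 0.78 that was 1.11 and 0.45 against control replicates 1 and 2 alone, but its dimmer probe set gave -0.53. Adam19, a sheddase gene of neuregulins, had 6.32 and 4.84 in BC alone, which enclosed the controls at 5.39 and 4.98. Its second probe set, only slightly dimmer, had 6.43 and 5.74 against 4.12 and 4.78, a difference of 1.635 without overlap.

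Adam8, known from leukocytes, and Adam28, known from lymphocytes, were the shedding ADAM genes with a lower mean in BC alone. Adam8 had 5.63 and 4.55 in BC alone, set against control values of 5.49 and 6.55, a difference of -0.93 ± 0.54 (SE) with overlap. Adam28 had 5.55 and 4.31 against 4.77 and 6.0, also with overlap. Both were highest on control replicate 2. The 6 immune markers had a mean log2 value of 4.64 and 5.14 in BC alone and 5.18 and 4.94 in the control. Of these, 2 had a higher mean in BC alone and 4 a lower one. Their defining gene Ptprc lay below the array median on all arrays, while Csf1r, Cd68 and Tyrobp lay above it on all arrays. The part of immune cells in the Adam8 and Adam28 values was not tested.

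**Figure D3:**
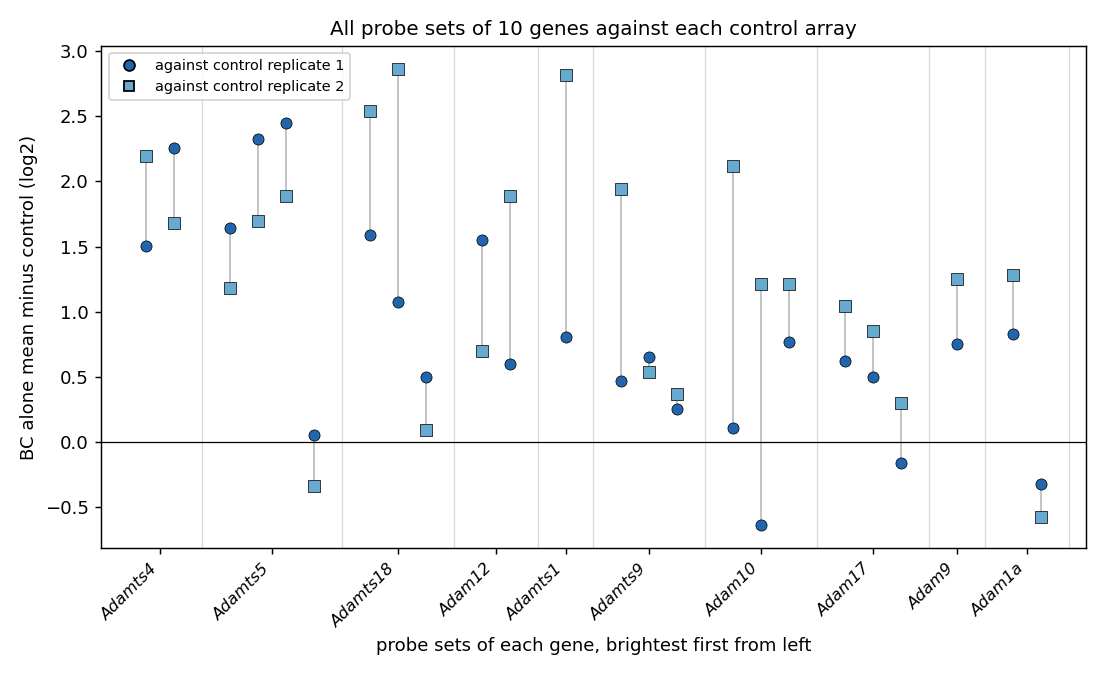
Difference of the BC alone mean from control replicate 1 (circles) and control replicate 2 (squares), in log2 units, for every probe set of 10 genes, ordered by brightness from left to right within a gene. Both Adamts4 probe sets and the 3 brighter Adamts5 probe sets lie above 1 against each control, while the second Adam10 probe set changes sign between the controls.

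The remaining ADAMTS genes were divided. Adamts3, a procollagen N-proteinase gene whose product also takes part in VEGF-C activation, was lower in BC alone on both arrays, at 3.96 and 4.09 against 4.72 and 5.24. The difference was -0.955 ± 0.33 (SE, unadjusted p = 0.0316, adjusted p = 0.842 in limma), and its second, dim probe set differed by -0.12. It was -0.695 against control replicate 1 alone and -1.215 against control replicate 2 alone. No value is given for the other procollagen N-proteinase genes, Adamts2 and Adamts14, which were not analysed here.

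Adamts12 and Adamts7 encode enzymes that cut cartilage oligomeric matrix protein. Adamts12 had 4.61 and 5.19 against 4.17 and 3.97, apart by 0.83 ± 0.35 (SE), and its second probe set gave 0.54, also without overlap. Adamts7 read 6.07 and 6.30 in BC alone, 7.91 in the first control and 5.63 in the second control. The controls thus lay on either side of BC alone, apart by 2.28, more than for any other member. Adamts10, Adamts16 and Adamts6 overlapped, with differences of -0.175, -0.02 and -0.04.

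The ADAMTS-like genes encode secreted proteins without a proteinase domain, several of which bind fibrillin microfibrils. Groups overlapped for all 5, with differences from -0.235 for Adamtsl5 to 0.575 for Adamtsl4. Adamtsl4 had 7.01 and 8.02 in BC alone and 7.40 and 6.48 in the control, so the BC alone arrays enclosed control replicate 1. Adamtsl1 had 5.30 and 6.72 against 5.91 and 5.21. For all 5 the gap between the controls exceeded the difference between the groups, as it did for 30 of the 45 members, or 66.7%, and for 72.3% of all genes.

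Genes of the ADAM family known from sperm, egg binding or the epididymis lay low. Of 14 such genes, 11 were below the array median on all 4 arrays. Of the same 14, 13 had a lower mean in BC alone, at differences from -0.54 to -0.095, and 8 had a higher mean than control replicate 1. The median of the 14 was 3.215 and 3.2 on the BC alone arrays, 3.2 on the first control and 3.635 on the second, whose median over all probe sets was also the highest. The part of that array's narrower range in these lower means was not tested.

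Adam1a, which encodes a fertilin alpha subunit, was the exception in that group. It had 5.47 and 5.92 in BC alone, above control values of 4.87 and 4.41, a difference of 1.055 ± 0.35 (SE, unadjusted p = 0.0263, adjusted p = 0.842 in limma). A dimmer Adam1a probe set had 3.90 and 3.80 against 4.17 and 4.43, a difference of -0.45, and the mean of both gave 0.30. Its neighbour Adam1b had 4.02 and 4.19 against 4.10 and 4.75, with overlap. Among the ADAM genes of the nervous system that lack an active proteinase, Adam23, a receptor gene of the LGI1 protein, had 5.29 and 4.82 against 3.85 and 4.52, and its dimmer probe sets differed by -0.715 and -0.04. Adam22 and Adam11 differed by 0.30 and -0.51.

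Among inhibitors, carriers and substrates of these enzymes, the tissue inhibitor genes were higher in BC alone mainly through control replicate 2. Of 57 measured genes of 63 listed, 10 were at least 2-fold higher without overlap and 1 was lower, and 0 passed limma over all genes. Without control replicate 2 there were 2 higher, Tfpi2 and Pcsk5, and 4 lower, Tspan33, Dll1, Fbn2 and Comp. The median difference of the 57 was 0.44 over both controls and 0.12 against control replicate 1 alone. The shares of all genes at these sizes are those given above.

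Timp3, the inhibitor with the broadest action on ADAM and ADAMTS enzymes, had 9.69 and 9.94 in BC alone, and 9.44 and 6.72 in the controls, so the first control lay close to BC alone. Timp1 had 9.20 and 8.68 against 8.68 and 6.46, so that the lower BC alone array equalled control replicate 1. Timp2 had 10.37 and 10.87 against 9.97 and 9.06, a difference of 1.105 ± 0.43 (SE) that was 0.65 without control replicate 2. The membrane-bound inhibitor gene Reck lay below the array median on all arrays, at 3.77 and 3.43 against 3.05 and 3.15.

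Of 8 measured carriers and chaperones of the sheddases, 5 had a lower mean in BC alone and 3 a higher one. Tspan33, a tetraspanin that escorts ADAM10, had 5.10 and 4.78 in BC alone against 7.14 and 5.69, a difference of -1.475 ± 0.53 (SE, unadjusted p = 0.0359, adjusted p = 0.842 in limma). Here control replicate 1 was the highest array. Rhbdf2, which carries ADAM17 to the cell surface, had 6.72 and 6.96 against 7.02 and 7.93. Rhbdf1, one of the 3 higher genes, had 9.24 and 9.26 against 9.39 and 7.46. Its difference was 0.825 with overlap, and -0.14 against control replicate 1 alone. Pcsk5, a proprotein convertase of the kind that removes the inhibitory prodomain, had 6.28 and 4.58 against 4.38 and 4.14, so that BC alone replicate 2 lay near the controls and the difference was 1.17 ± 0.59 (SE).

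The versican gene Vcan, a matrix substrate of Adamts1, Adamts4, Adamts5 and Adamts9, had 8.18 and 8.52 in BC alone, and 8.17 and 4.26 in the controls. Its level was thus nearly equal on 3 arrays, with a difference of 0.18 without control replicate 2, where Adamts4 and Adamts5 differed by 1.505 and 1.64. These values are of the brightest Vcan probe set, and of 5 Vcan probe sets only 3 had a higher mean in BC alone. Tfpi2, a proteinase inhibitor that is itself cut by ADAMTS1, had 5.11 and 4.03 against 3.05 and 3.38, a difference of 1.355 ± 0.45 (SE). Col5a1 and Col1a1 encode procollagen chains trimmed by N-proteinases. Col5a1 had 10.21 and 9.88 against 9.30 and 6.90, a difference of 1.945 that was 0.745 without control replicate 2. Col1a1 had 10.84 and 10.91 against 10.30 and 8.62, a difference of 1.415 that was 0.575 without that array. Both were lowest on control replicate 2. Kitl, a membrane-bound growth factor gene, had 9.16 and 9.22 against 8.87 and 7.19.

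The EGF receptor ligand genes cut by ADAM17 and related sheddases did not differ together. Tgfa had 6.70 and 6.88 against 6.23 and 6.19, apart by 0.58, while Hbegf had 8.86 and 8.97 between controls of 9.43 and 8.58. Ereg had 6.06 and 3.67 against 4.01 and 3.35, with overlap. Of the Notch genes cut by ADAM10, Notch2 had 8.75 and 8.44 against 7.73 and 7.83, apart by 0.815 ± 0.31 (SE), and Notch1 had 9.04 and 8.56 against 8.97 and 7.43, with overlap.

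**Figure D4:**
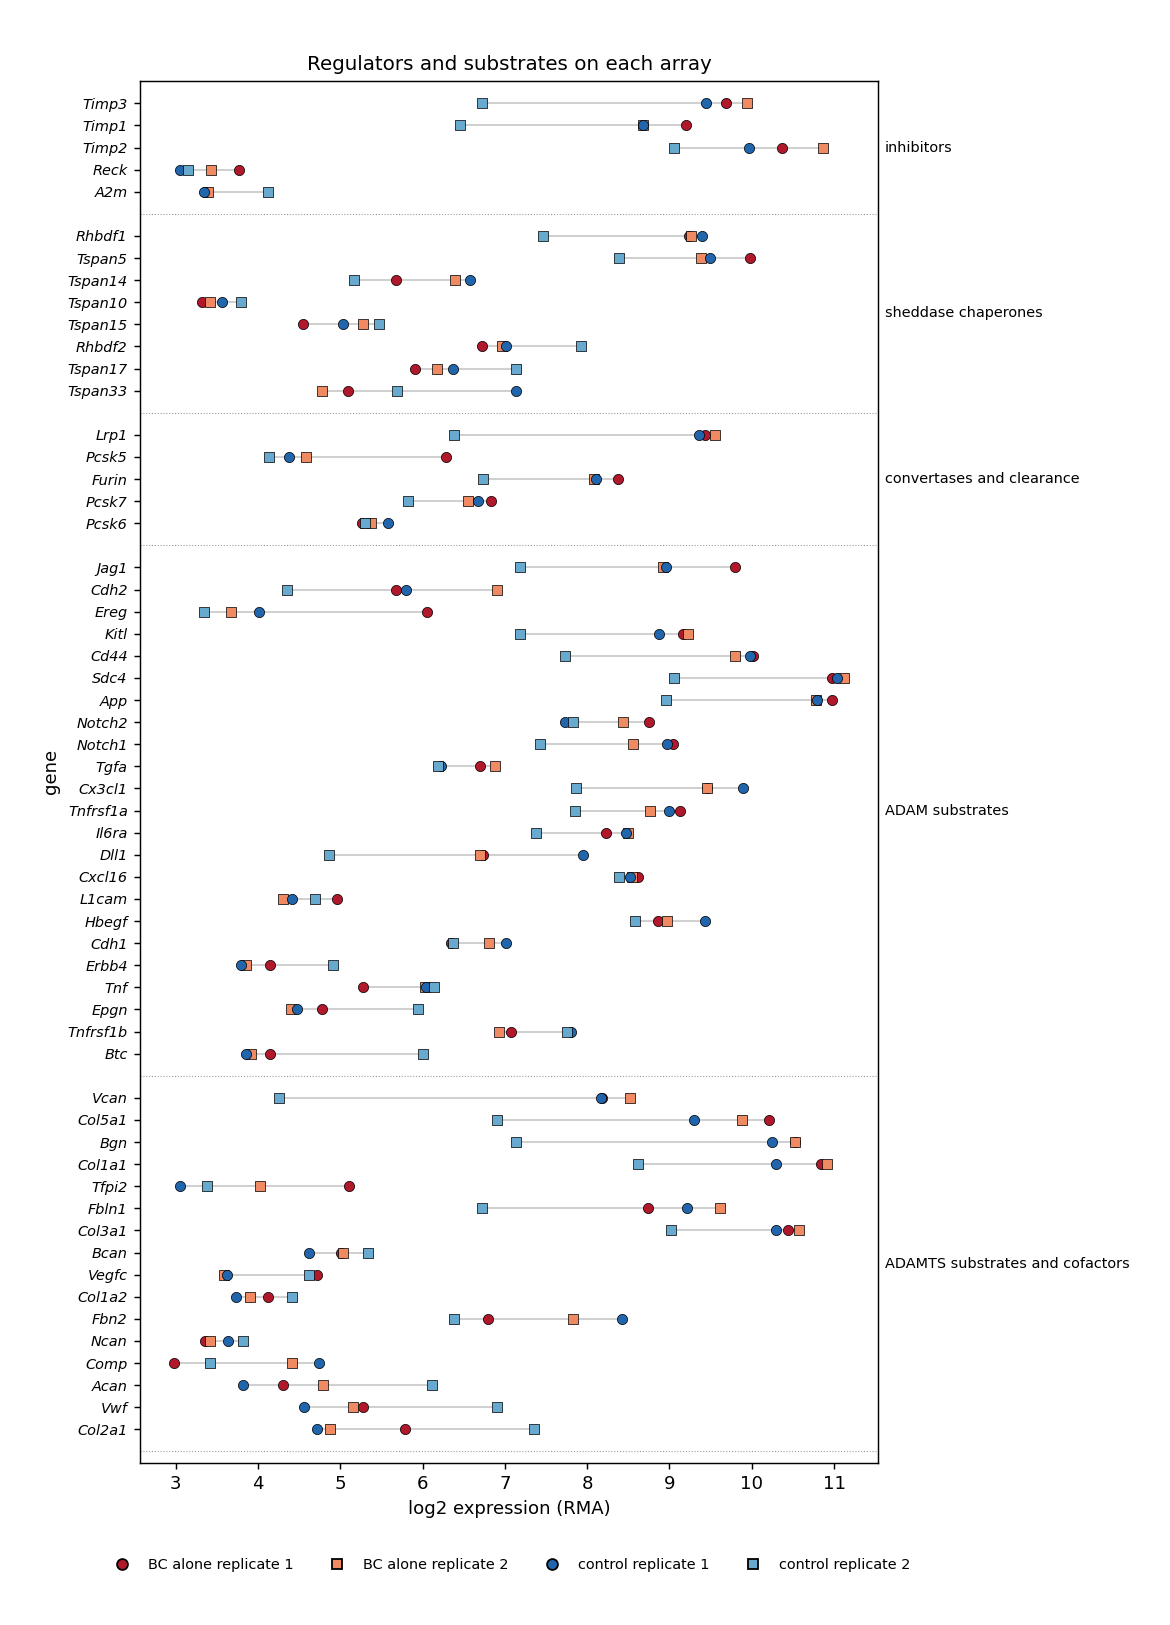
Log2 expression of the 57 measured regulators and substrates on each array, as deposited RMA values, grouped by role and sorted within a role by the difference of the group means. Symbols are as in the plot of the family itself. Vcan, Timp3, Lrp1 and Bgn have 3 arrays close together and control replicate 2 far to the left.

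Fibroblast, pericyte and endothelial markers differed in part in the same direction as these members, and 0 of these 15 passed limma. The 7 fibroblast markers had a mean log2 value of 7.27 and 7.52 in BC alone, 6.18 in the first control and 5.08 in the second, and 6 of them were at least 2-fold higher without overlap. Of their defining genes, Pdgfra lay below the array median on all arrays, at 4.06 and 3.57 against 3.58 and 3.68, while Thy1 had 8.65 and 8.39 against 6.57 and 5.92. The 3 pericyte markers measured had a mean of 8.12 and 7.49 against 5.90 and 6.69, with 2 of them, Rgs5 and Notch3, at least 2-fold higher without overlap and Pdgfrb differing by -0.105 with overlap. The 5 endothelial markers had a mean of 6.58 and 6.65 against 5.78 and 5.54, with 3 at least 2-fold higher without overlap, while Pecam1 and Kdr overlapped at 0.07 and 0.215. Of all genes 4.79% were at least 2-fold higher without overlap. The median difference of the fibroblast, pericyte and endothelial markers was 2.07, 1.64 and 1.315 over both controls. Against control replicate 1 alone it was 1.15, 1.58 and 0.735 in the same order. Of the 7 basal markers, 6 also had a higher mean in BC alone, and Myh11 was at least 2-fold higher without overlap. Their median difference was 1.405 over both controls and -0.415 against control replicate 1 alone. The part of any of these cell types in the ADAM and ADAMTS differences was not tested. In such sorted pools fewer cells of a type and less RNA per cell cannot be told apart.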

How the data were processed

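The file deposited by the authors holds 1 log2 value for each probe set and array. The submitters' processing notes name RMA and affy without a version. RMA subtracts background, equalises quantiles, summarises the probes of a set and compresses large differences. Whether the arrays were normalised together is not given in the sources used here, and no detection calls were used. Of 45141 probe sets, 28898 had 1 symbol, 551 several and 15692 none in the platform annotation, which can be old. All 45 members matched the reference gene table by Entrez identifier with the same symbol. Groups were compared with limma 3.58.1 under R 4.3.3 (lmFit, eBayes) over all 17097 genes, two-sided. The fit had 2 residual and 3.5 prior degrees of freedom, a threshold of 0.05 and no block. It was also tried on simulated data in which each gene had the same spread on all 4 arrays. That check does not cover the narrower range of control replicate 2. A difference is the BC alone mean minus the control mean, and a fold is 2 to its power. An alternative set of scalings, probe set rules, filters, variance models and omitted arrays was run. Same-numbered arrays did not deviate together (r = -0.0184 over genes). Because control replicate 2 stood apart, this value cannot settle whether the arrays were paired.

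All 4 array values are given for members at least 2-fold apart without overlap and for Adam10, Adam17, Adam9, Adam15, Adamts1 and Adamts5. Of regulators and substrates, the 8 of smallest p among those so apart, Timp1, Timp2, Timp3 and Vcan follow the rule. All other genes with array values were picked with their values in view. The members and lists were chosen with earlier results of these data known. Sequences are from RefSeq, build GRCm38.p6.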

Additional observations from a re-analysis of the deposited data

How the results depend on the processing

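The 9 members at least 2-fold apart became 5 after another quantile normalization and 7 to 15 when an array was left out. The share of all genes so apart went from 5.69% to 3.59% and to 4.28% to 22.4% in the same order. The 15, without control replicate 1, where the share was 22.4%, were 10 higher and 5 lower members. The 20 members with a higher mean became 20 to 32 when an array was left out, 32 being the count without control replicate 2. Of all genes 50.3% had a higher mean then, against 46.7% as reported. The median member difference of -0.095 turned to 0.021 after another quantile normalization, 0.03 after median centring and 0.012 after cyclic loess. Without the genes of below-median mean, which left 20 members, it was 0.805. Over all genes the median was -0.024, 0.085, -0.02 and 0.375 in the same order, and 72.4% of genes were higher in the last case. The median member difference was -0.06 to 0.11 when an array was left out, above 0 without either control. Members called in limma numbered 1 with an intensity trend, and 97 genes were called then. With the replicate block limma called 2 members, Adamts18 and Adamts4 (adjusted p = 0.0158 and 0.048), and 108 genes. The same-numbered arrays are known to share only a number, and whether they were paired could not be settled. No other alternative called a member. Of the 11 regulators and substrates at least 2-fold apart, 10 were higher in BC alone. After another quantile normalization there were 10, of which 6 were higher, and after cyclic loess 7, of which 4 were higher. Median centring gave 12, of which 11 were higher. There were 6 to 33 when an array was left out. The 6, without control replicate 2, held 2 higher ones, where 4.28% of all genes were so apart. The 33, without control replicate 1, held 26 higher ones, where 22.4% of all genes were so apart. Among the 11 members followed singly, only Adam15 changed sign, at -0.47 and -0.41 as given above. Adam12 differed by 0.60 after another quantile normalization, 0.73 after cyclic loess and 0.70 without control replicate 1. Adam10 differed by 0.50 and 0.40 under those scalings, and Adam17 by 0.21 and 0.24. Low signal could not be told from background.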
